A study of Mus musculus with 6 samples.

Results

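The genes described here encode the histone demethylase LSD1 (Kdm1a), its paralog Kdm1b, the 3 CoREST scaffolds Rcor1, Rcor2 and Rcor3, the deacetylases Hdac1 and Hdac2, and the accessory subunits Hmg20b and Phf21a. They were taken by gene symbol, and all 9 were found among the 54134 gene symbols counted. All 9 also passed the filter on low counts, which left 18705 genes for testing. Bulk RNA of prefrontal cortex was sequenced from 3 groups of 2 mice, all 6 to 8 weeks old. The duplicates of a group are separate mice per the series' design. The first group carried the heterozygous Shank3 +/∆C allele, which deletes the C-terminal part of a postsynaptic scaffold protein tied to autism, and was given GSK-LSD1, an inhibitor of the LSD1 enzyme. The second group was Shank3 +/∆C mice given vehicle, and the third was wild-type mice (C57BL/6 x C3H) given vehicle. No group of wild-type mice given GSK-LSD1 was analysed here, so each value on the inhibitor refers to mutant tissue. Dose, length of treatment and strain background of the mutants were not given in the sources used here.

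LSD1 is an enzyme that uses FAD to take methyl groups off lysines of the histone H3 tail. It works on nucleosomes when bound to a CoREST protein, which joins it to HDAC1 or HDAC2, and together they remove acetyl and methyl groups from the same histone tails. The transcription factor REST brings this complex to neuronal genes in cells that should not express them, and in the brain CoREST complexes also act in neurons and their precursors. GSK-LSD1 acts on the enzyme's activity. The measurements here are RNA levels of the genes named above, not protein or activity, and Kdm1b is among them as the paralog of Kdm1a.

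Libraries held 14133834 to 28646960 counted reads. Levels are given as CPM, that is reads divided by the library's total after TMM scaling, which aligns libraries on their typical gene. A count of 3 reads, the upper limit that 0 reads allows, equals 0.108 to 0.205 CPM depending on the library and covers counting error only. Shank3 itself lay at 159 and 148 CPM in mutants given GSK-LSD1, 146 and 174 CPM in mutants given vehicle, and 153 and 159.9 CPM in wild type. Reads of the whole gene were counted, exons outside the deletion included, so this value is a weak check of the genotype. The 6 excitatory neuron markers, all tested, summed to 3004 to 4157 CPM over the 6 libraries, against 89.97 to 123 CPM for 6 markers of striatal neurons. The 8 oligodendrocyte markers summed to 2237 and 5226 CPM in mutants given GSK-LSD1, 5559 and 5602 CPM in mutants given vehicle, and 2360 and 2196 CPM in wild type, so library 1 of the inhibitor group stood with wild type and library 2 with the vehicle mutants.

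Per length of exon, Kdm1a and Hdac2 were the most abundant of the 9 genes. Levels were compared between genes as CPM per kilobase (kb) of annotated exon, with the mean ± SD over all 6 libraries. Kdm1a, on chromosome 4 from 136550540 to 136602723 (minus strand, GRCm38), lay at 18.1 ± 1.06 CPM per kb, higher than 84.1% of the 18454 tested genes with a known length. Hdac2, a class I histone deacetylase on chromosome 10 from 36974544 to 37001889 (plus strand), followed at 17.2 ± 0.841 CPM per kb. Kdm1a was above Hdac2 in 6 of 6 libraries, but the ranges of both genes over the libraries overlapped.

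Phf21a (chromosome 2 from 92093117 to 92364666, plus strand), a subunit whose plant homeodomain finger binds the unmethylated H3 tail, came next at 5.28 ± 0.670 CPM per kb and did not overlap with Hdac2. Rcor2 (chromosome 19 from 7267325 to 7275225, plus strand) and Rcor1 (chromosome 12 from 111039351 to 111115901, plus strand) are scaffolds that hold LSD1 and the deacetylase together. Rcor2 lay at 4.13 ± 0.267 CPM per kb and Rcor1 at 3.76 ± 0.554 CPM per kb. Rcor2 was the higher in 5 of 6 libraries, and the ranges overlapped. Hmg20b, an HMG box subunit (chromosome 10 from 81346048 to 81350480, minus strand), lay at 2.38 ± 0.310 CPM per kb. Kdm1b, the other FAD-dependent H3 demethylase of the family, lay at 2.34 ± 0.297 CPM per kb and was above Hmg20b in 4 of 6 libraries. Rcor3, the third scaffold (chromosome 1 from 192098546 to 192138062, minus strand), lay at 1.23 ± 0.222 CPM per kb, a value that depends on its long annotated exons of 13.6 kb in all. Hdac1 had the lowest mean, 0.855 ± 0.366 CPM per kb, and its coding sequence has near-identical copies elsewhere in the genome, described next.

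**Figure D1:**
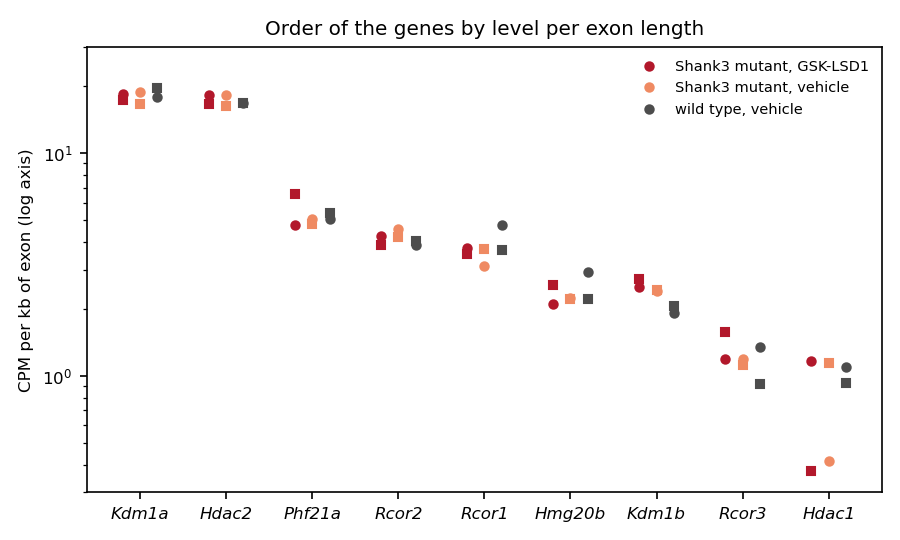
Level of each gene in each of the 6 libraries, in CPM per kilobase of annotated exon on a log axis, genes ordered by their mean. Circles are library 1 and squares library 2 of a group, coloured by group. Kdm1a and Hdac2 lie between 16.4 and 19.7 CPM per kb, and Hdac1 falls to 0.414 and 0.376 in 1 vehicle mutant library and 1 GSK-LSD1 library.

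Hdac1, on chromosome 4 from 129516104 to 129542713 (minus strand), has processed pseudogenes that nearly match its coding sequence, and a pseudogene held more counted reads than Hdac1. Which of these genes the reads came from was not tested. Gm10093, a single-exon copy on chromosome 17 from 78491582 to 78493025 (plus strand), matches Hdac1 at 99.4% of 1444 aligned bases, with 9 mismatches. Of all stretches of 50 bases in that alignment, 80.4% are the same in both genes. A second copy, Gm4864, on chromosome 12 from 77623549 to 77625009 (minus strand), matches at 96.1% of 1440 aligned bases. The stretch below holds 6 of the 9 differences of Gm10093. It runs from base 363 to base 482 of the Hdac1 coding sequence (GENCODE release M21, GRCm38), and capitals mark the bases of a copy that differ from Hdac1.
Hdac1: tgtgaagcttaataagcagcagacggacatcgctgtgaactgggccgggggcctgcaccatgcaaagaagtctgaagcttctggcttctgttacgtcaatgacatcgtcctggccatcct
Gm10093: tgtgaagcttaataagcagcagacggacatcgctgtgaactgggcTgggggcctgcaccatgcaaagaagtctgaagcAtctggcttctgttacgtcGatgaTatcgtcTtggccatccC
Gm4864: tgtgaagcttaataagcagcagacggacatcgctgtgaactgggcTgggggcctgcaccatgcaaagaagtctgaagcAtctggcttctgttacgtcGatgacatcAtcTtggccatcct
Counted from the first base of this stretch, Gm10093 differs from Hdac1 by C46T, T79A, A98G, C103T, C110T and T120C, and Gm4864 shares C46T, T79A, A98G and C110T and adds G107A.

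Gm10093 took more reads than Hdac1 in each library. It held 206 and 146 reads in mutants given GSK-LSD1, 250 and 180 in mutants given vehicle, and 143 and 247 in wild type. Hdac1 held 95 and 19 reads in mutants given GSK-LSD1, 31 and 87 in mutants given vehicle, and 55 and 89 in wild type. Gm4864 held 4 and 27 reads in mutants given GSK-LSD1, 24 and 3 in mutants given vehicle, and 5 and 9 in wild type. Library 2 of the inhibitor group and library 1 of the vehicle mutants thus had few Hdac1 reads and the most Gm4864 reads. Hdac1 made up 9.90% and 10.2% of the summed reads in these 2 libraries, and 25.8% to 32.2% in the other 4.

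The sum of Hdac1 and its copies Gm10093 and Gm4864 was nearly level across libraries, at 12.9 and 13.1 CPM in mutants given GSK-LSD1, 14.0 and 12.2 CPM in mutants given vehicle, and 13.9 and 12.5 CPM in wild type. A further copy that was found is not part of the sum. Divided by the exon length of Hdac1, the sum averaged 3.81 CPM per kb (range 3.55 to 4.07), near Rcor1 and Rcor2. This would be the level of Hdac1 only if all these reads came from it, which was not tested. The setting that divides reads between gene and copies was not given in the sources used here, and the level of Hdac1 alone is uncertain for that reason.

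**Figure D2:**
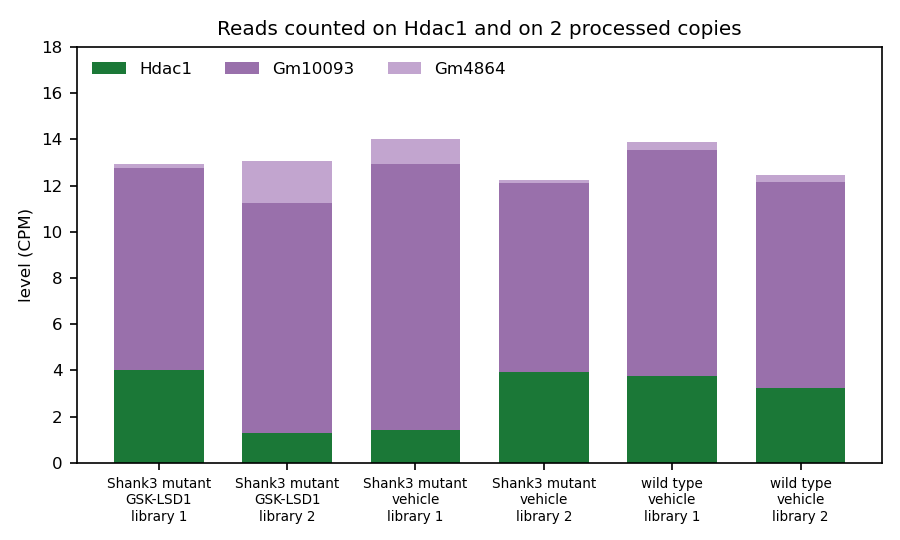
Reads counted on Hdac1 (bottom), Gm10093 (middle) and Gm4864 (top) in each library, in CPM, stacked, 1 bar per library. The Hdac1 part is 1.295 and 1.43 CPM in library 2 of the GSK-LSD1 group and library 1 of the vehicle mutants, while the full height stays between 12.2 and 14.0 CPM.

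GSK-LSD1 in the mutants was not accompanied by a detectable change in the RNA of its target or of any other of the 9 genes. In the comparison of mutants given GSK-LSD1 with mutants given vehicle, 0 of 9 genes passed edgeR's quasi-likelihood test at an adjusted p under 0.05, against 0.107% of all tested genes. At an unadjusted p under 0.05 the count was also 0 of 9, against 5.7% of all tested genes, and DESeq2 and limma-voom called 0 of 9 each. With the oligodendrocyte level as a covariate 2 of 9 had such a p in edgeR's test, against 1365 of 18705 tested genes, and 0 passed. The median log2 fold change of the 9 genes was 0.06, against 0.00 for all tested genes.

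Kdm1a lay at 95.3 and 89.9 CPM in mutants given GSK-LSD1, against 97.2 and 86.3 CPM in mutants given vehicle. The inhibitor libraries fell between those of the vehicle mutants. Its log2 fold change was 0.01 ± 0.11 (± SE, adjusted p = 0.999, edgeR), with a 95% interval of -0.21 to 0.24, which is a fold of 0.865 to 1.18. For Hdac2 the values were 81.3 and 74.3 CPM with GSK-LSD1, against 82.1 and 73.2 CPM with vehicle (0.00 ± 0.11, interval -0.22 to 0.23). Kdm1a and Hdac2 have the most reads and the narrowest intervals of the 9 genes.

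Among the scaffolds, Rcor1 had 21.3 and 20.1 CPM with GSK-LSD1, against 17.7 and 21.1 CPM with vehicle (log2 fold change 0.10 ± 0.16, interval -0.23 to 0.43). Rcor2 had 13.4 and 12.2 CPM with GSK-LSD1, against 14.4 and 13.2 CPM with vehicle (-0.10 ± 0.16, interval -0.45 to 0.24). Rcor3 had 16.2 and 21.5 CPM with GSK-LSD1, against 16.3 and 15.3 CPM with vehicle (0.25 ± 0.19, interval -0.15 to 0.64). The groups overlapped for each scaffold.

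The subunit Phf21a had 40.9 and 56.1 CPM with GSK-LSD1, against 43.4 and 41.0 CPM with vehicle (0.19 ± 0.13, adjusted p = 0.9745, edgeR). Its log2 fold change rests on library 2 of the inhibitor group, without which it was -0.04. Library 2 also held the highest Rcor3 level of the 6 libraries, and Rcor3 stood at 0.05 without it. Without library 1 of the inhibitor group Rcor3 stood at 0.44. With the oligodendrocyte level as a covariate Rcor3 stood at 0.47 (unadjusted p = 0.0259, adjusted p = 0.586, edgeR). Hmg20b had 6.66 and 8.04 CPM with GSK-LSD1, against 7.03 and 6.98 CPM with vehicle (0.06 ± 0.21). Kdm1b was the 1 gene whose groups did not overlap, at 13.8 and 15.0 CPM with GSK-LSD1, against 13.2 and 13.4 CPM with vehicle (0.11 ± 0.16, interval -0.23 to 0.45). Of all tested genes 33.6% did not overlap in this comparison, so 1 of 9 is not more than the background.

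Hdac1 alone had a wide interval, -1.34 to 1.42 around a log2 fold change of 0.04 ± 0.59. Summed with its copies (an alternative added with the data in view), it stood at -0.01 ± 0.17 (interval -0.36 to 0.33, adjusted p = 0.999, edgeR; over all alternatives the adjusted p of Hdac1 ran from 0.766 to 1).

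**Figure D3:**
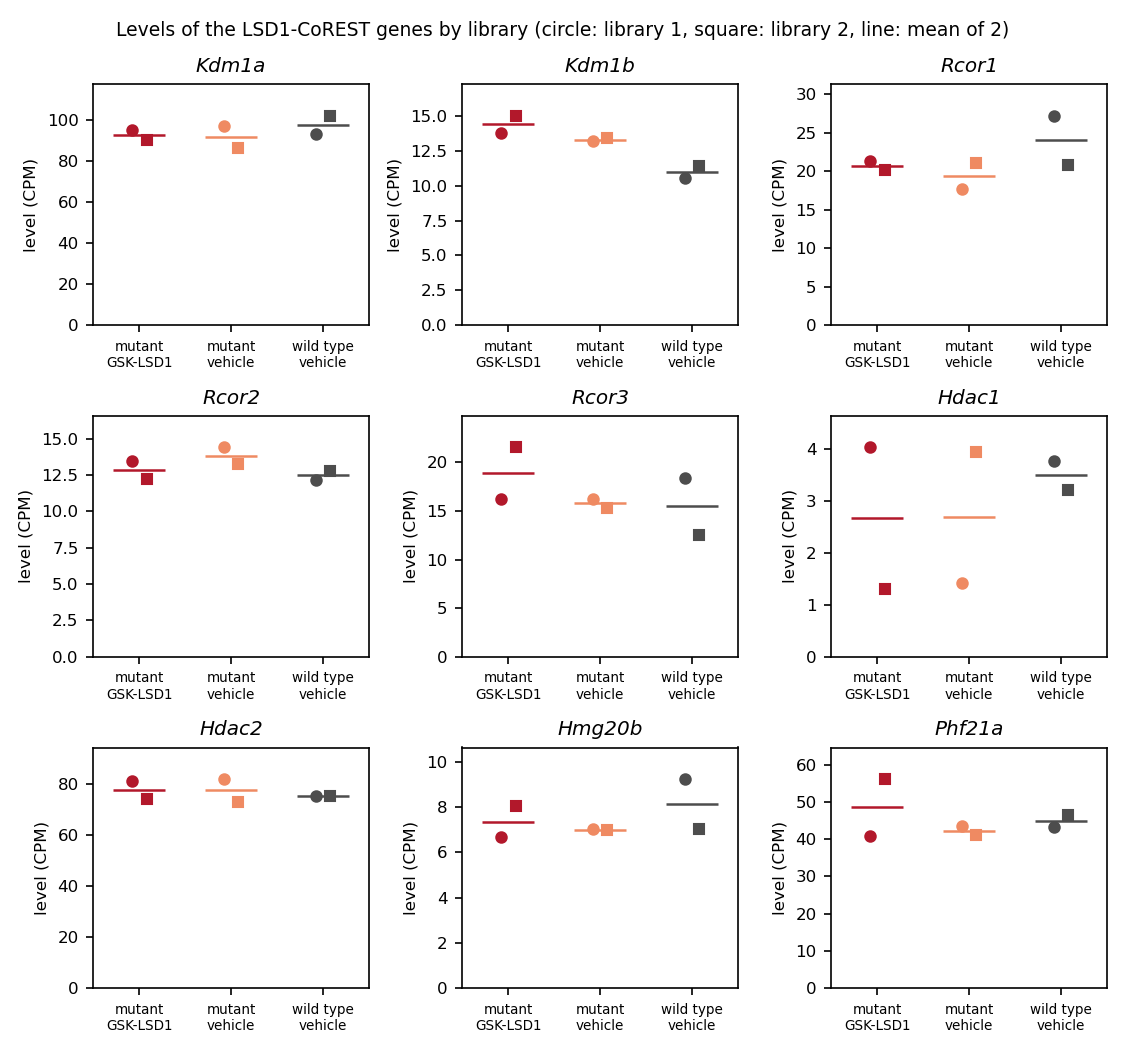
Level of each of the 9 genes in CPM from 0, by group: mutants given GSK-LSD1, mutants given vehicle and wild type. Circles are library 1, squares library 2, and lines the mean of 2. Kdm1a lies between 86.3 and 102 CPM in all 6 libraries, and for Kdm1b both wild-type libraries are below the 4 mutant libraries.

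Mutants given vehicle were then compared with wild type given vehicle, the contrast of genotype. Again 0 of 9 genes passed edgeR's test, against 1.27% of all tested genes, and 0 of 9 had an unadjusted p under 0.05, against 14% of all tested genes. With the oligodendrocyte level as a covariate 1 of 9 had such a p, against 1680 of 18705 tested genes. This was Phf21a at -0.46 in log2 fold change (unadjusted p = 0.0166, adjusted p = 0.393, edgeR). With no filter on low counts it was 1 of 9, against 3162 of 32279 genes. This was Rcor1 at -0.31 (unadjusted p = 0.0445, adjusted p = 0.482, edgeR). DESeq2 and limma-voom called 0 of 9 each, though DESeq2 gave Hdac1 no adjusted p here (unadjusted p = 0.4805). The 9 genes had a median log2 fold change of -0.09, against 0.02 for all tested genes. Groups did not overlap for 2 of 9 genes, Kdm1b and Rcor2, against 46.2% of all tested genes.

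Kdm1a had 97.2 and 86.3 CPM in mutants given vehicle, against 93.1 and 102 CPM in wild type, and the groups overlapped. Its log2 fold change was -0.09 ± 0.11 (adjusted p = 0.792, edgeR), with an interval of -0.31 to 0.13. Hdac2 had 82.1 and 73.2 CPM in mutants given vehicle, against 75.2 and 75.5 CPM in wild type (0.04 ± 0.11). The difference of Rcor1 had the smallest p of the 9. It lay at 17.7 and 21.1 CPM in mutants given vehicle, against 27.2 and 20.8 CPM in wild type (-0.30 ± 0.16, interval -0.63 to 0.03, unadjusted p = 0.0698, adjusted p = 0.408, edgeR). Wild-type library 1 was the highest of all libraries for Rcor1, and without it the value was -0.11. The value was -0.49 without wild-type library 2, -0.18 without vehicle mutant library 1 and -0.43 without vehicle mutant library 2.

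Kdm1b had 13.2 and 13.4 CPM in mutants given vehicle, against 10.5 and 11.4 CPM in wild type (0.27 ± 0.16, interval -0.07 to 0.62, adjusted p = 0.491, edgeR). Rcor2 had 14.4 and 13.2 CPM in mutants given vehicle, against 12.2 and 12.8 CPM in wild type (0.15 ± 0.16, interval -0.20 to 0.49). For both genes the mutant libraries were above the wild-type libraries without passing the test.

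None of the other genes passed the test, and their groups overlapped. Phf21a had 43.4 and 41.0 CPM in mutants given vehicle, against 43.3 and 46.4 CPM in wild type (-0.09 ± 0.13). Hmg20b had 7.03 and 6.98 CPM in mutants given vehicle, against 9.24 and 7.01 CPM in wild type (-0.20 ± 0.21). Rcor3 had 16.3 and 15.3 CPM in mutants given vehicle, against 18.4 and 12.6 CPM in wild type (0.05 ± 0.19). Hdac1 alone stood at -0.37 ± 0.58, and summed with its copies at 0.00 ± 0.17 (interval -0.35 to 0.35).

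Mutants given GSK-LSD1 were also set against wild type. This comparison shares its libraries with the other 2, so its values are not independent of them. Of the 9 genes 0 passed edgeR's test, against 2.62% of all tested genes, and DESeq2 and limma-voom called 0 of 9 each. The median log2 fold change was 0.04, against 0.02 for all tested genes. At an unadjusted p under 0.05 there was 1 of 9, Kdm1b, against 15.7% of all tested genes, and Kdm1b was also the 1 gene without overlap, against 45.8%.

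Kdm1b had 13.8 and 15.0 CPM in mutants given GSK-LSD1, against 10.5 and 11.4 CPM in wild type. Its log2 fold change was 0.38 ± 0.16, with an interval of 0.04 to 0.73 (unadjusted p = 0.0313, adjusted p = 0.260, edgeR). It was positive under each of the 21 alternatives, between 0.33 and 0.47, with adjusted p from 0.163 to 0.749. Kdm1b lies on chromosome 13 from 47043499 to 47085279 (plus strand), and 505 of its exonic bases, 9.19% of them, are also exon of Dek on the other strand. Libraries were strand-specific per the labels, and the strand setting of the counting was not given in the sources used here. Dek, a chromatin protein gene, had 34.7 and 34.6 CPM in mutants given GSK-LSD1, 35.4 and 35.6 CPM in mutants given vehicle, and 29.4 and 32.7 CPM in wild type, so it too was lowest in wild type, and its part in the Kdm1b counts was not tested.

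Cell type markers differed in the same comparison. Excitatory neuron markers summed to 3461 and 3004 CPM in mutants given GSK-LSD1, against 4157 and 3941 CPM in wild type, and astrocyte markers to 4387 and 4293 CPM in mutants given GSK-LSD1, against 3294 and 4044 CPM in wild type. All 6 markers of each list passed the filter on low counts. In edgeR's test 3 of 6 excitatory markers fell and 3 of 6 astrocyte markers rose. Of all 18705 tested genes 372 fell and 119 rose in this comparison. In bulk tissue, fewer cells of a type and less RNA per cell cannot be told apart. Library 1 of the inhibitor group, whose oligodendrocyte markers stood at the wild-type level, had 13.8 CPM of Kdm1b and was above both wild-type libraries. With the oligodendrocyte level as a covariate the log2 fold change of Kdm1b was 0.34 and its unadjusted p was 0.0827 in edgeR's test (adjusted p = 0.457). The unadjusted p was also above 0.05 by DESeq2 (0.0646) and, in edgeR's test, without inhibitor library 2 (0.119), wild-type library 1 (0.121) or wild-type library 2 (0.0541). The part of the neuron and astrocyte markers in these values was not tested.

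The target of the inhibitor was at 95.3 and 89.9 CPM in mutants given GSK-LSD1, against 93.1 and 102 CPM in wild type (Kdm1a, -0.07 ± 0.11, interval -0.30 to 0.15). Hdac2 stood at 0.05 ± 0.11, Rcor1 at -0.20 ± 0.16, Rcor2 at 0.04 ± 0.16 and Rcor3 at 0.29 ± 0.19 in log2 fold change. Phf21a was at 0.10 ± 0.13, Hmg20b at -0.14 ± 0.21 and Hdac1 at -0.33 ± 0.59, or -0.01 ± 0.17 summed with its copies. Each of these 8 genes overlapped between the groups, and none had an unadjusted p under 0.05 in edgeR's test.

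**Figure D4:**
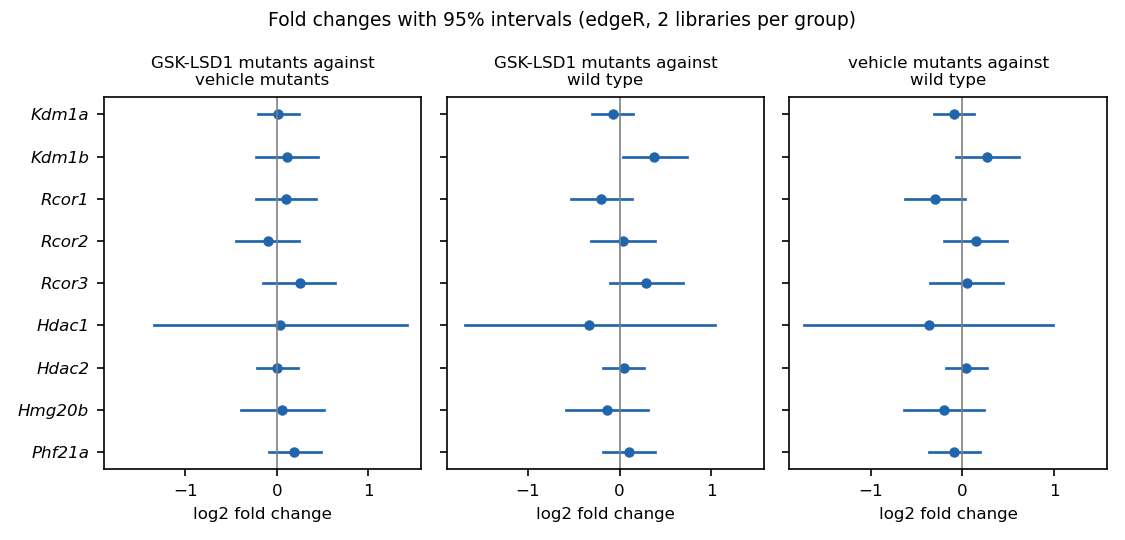
Log2 fold change of each gene (point) with its 95% interval (line) from edgeR's quasi-likelihood fit, 1 panel per comparison, with 2 libraries per group. Kdm1b against wild type in mutants given GSK-LSD1 (0.04 to 0.73) is the 1 interval of 27 that leaves out 0, and Hdac1 has the widest in each panel.

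Ratios of 2 genes within a library do not depend on the scaling between libraries. Kdm1b reads per Kdm1a read came to 0.145 and 0.167 in mutants given GSK-LSD1, 0.136 and 0.155 in mutants given vehicle, and 0.113 and 0.112 in wild type. All 4 mutant libraries were above both wild-type libraries, and the 2 mutant groups overlapped. Hdac2 reads per Kdm1a read came to 0.853 and 0.827 in mutants given GSK-LSD1, 0.844 and 0.848 in mutants given vehicle, and 0.808 and 0.740 in wild type, with the same order. Such separation is common for single genes: 46.2% of tested genes did not overlap between vehicle mutants and wild type, and 45.8% between GSK-LSD1 mutants and wild type. The share over ratios of other gene pairs was not computed. With 2 libraries against 2, an exact two-sided permutation test cannot give a p below 0.333, so no test of a single ratio was made.

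Ratios that involve the CoREST scaffolds were less regular. Rcor1 reads per Kdm1a read came to 0.224 and 0.224 in mutants given GSK-LSD1, 0.182 and 0.244 in mutants given vehicle, and 0.292 and 0.204 in wild type. Rcor2 reads per Rcor1 read came to 0.630 and 0.607 in mutants given GSK-LSD1, 0.815 and 0.628 in mutants given vehicle, and 0.448 and 0.613 in wild type. For Rcor1 to Kdm1a all 3 groups overlapped. For Rcor2 to Rcor1, both vehicle mutants were above both wild-type libraries, while the inhibitor group overlapped with either. Phf21a reads per Kdm1a read came to 0.429 and 0.624 in mutants given GSK-LSD1, against 0.447 and 0.475 in mutants given vehicle, and 0.465 and 0.455 in wild type, with library 2 of the inhibitor group apart from the other 5.

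**Figure D5:**
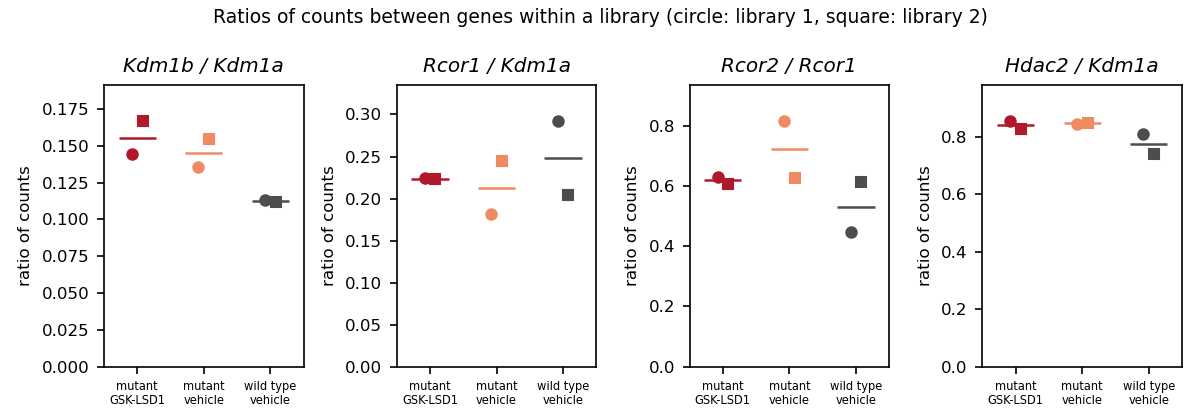
Ratio of the counts of 2 genes within each library, from 0, by group; circles are library 1, squares library 2 and lines the mean of 2. Kdm1b to Kdm1a is 0.136 to 0.167 in the 4 mutant libraries and 0.112 to 0.113 in wild type, while all 3 groups overlap for Rcor1 to Kdm1a.

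The 9 genes did not vary together over the 6 libraries. Pearson correlations of log2 CPM, given as a description over 6 libraries that share groups and scaling, ran from -0.72 (Rcor2 with Hmg20b) to 0.74 (Rcor2 with Hdac2). Kdm1a correlated with Hdac2 at 0.51, with Rcor1 at -0.17, with Rcor2 at 0.22 and with Rcor3 at -0.55. The genes most like Kdm1a were Pcyox1l (0.999), Prepl (0.987), Ranbp2 (0.984), Exoc1 (0.983) and Hspa4 (0.981), out of 10860 genes with a mean of at least 5 CPM. Of those, 0.617% correlated above 0.9. Pcyox1l had 21.9 and 20.2 CPM in mutants given GSK-LSD1, 22.5 and 19.1 CPM in mutants given vehicle, and 21.1 and 24.0 CPM in wild type, the same order of libraries as Kdm1a.

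Partners that bring LSD1 and CoREST to genes or bind with them were taken as a list of 18, of which 14 passed the filter on low counts. The SNAG-domain repressor genes Gfi1 and Gfi1b, known partners of LSD1 in blood cells, were at 0 reads in all 6 libraries, and Snai1 and Snai2 had at most 12 reads in a library. In mutants given GSK-LSD1 against mutants given vehicle, 0 of 14 passed edgeR's test, 0 had an unadjusted p under 0.05, and DESeq2 and limma-voom called 0 each. The median was 0.07. The smallest p-values belonged to Insm1 (0.41 ± 0.27), Zmym3 (0.15 ± 0.10) and Zeb2 (-0.15 ± 0.11 in log2 fold change).

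Against wild type the same list had 0 of 14 genes past the adjusted threshold by edgeR, DESeq2 or limma-voom, for either mutant group. With vehicle 6 of 14 had an unadjusted p under 0.05 in edgeR's test (2 higher and 4 lower), and with GSK-LSD1 5 of 14 (2 higher and 3 lower), against 14% and 15.7% of all tested genes. Rest, the repressor that recruits CoREST, had 7.97 and 9.95 CPM in mutants given GSK-LSD1, 7.81 and 9.66 CPM in mutants given vehicle, and 4.997 and 6.54 CPM in wild type. Both mutant groups were above wild type, with log2 fold changes of 0.61 ± 0.22 (GSK-LSD1, adjusted p = 0.168) and 0.58 ± 0.22 (vehicle, adjusted p = 0.216, edgeR), which did not pass. Of all tested genes 45.8% did not overlap with wild type in mutants given GSK-LSD1 and 46.2% in mutants given vehicle. Rest was named for its small p, so the lack of overlap is no further support. Sfmbt1 (-0.32 ± 0.11) and Zeb1 (0.35 ± 0.12) in mutants given vehicle, and Zeb2 (-0.29 ± 0.11) with GSK-LSD1, did not pass either.

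The other complexes that hold HDAC1 or HDAC2, and the remaining class I deacetylases, were taken as a list of 26, and all 26 passed the filter. In mutants given GSK-LSD1 against mutants given vehicle 0 of 26 passed by edgeR, DESeq2 or limma-voom. By edgeR 1 had an unadjusted p under 0.05, the Sin3 scaffold Sin3b at 153 and 147 CPM with GSK-LSD1, against 128 and 123 CPM with vehicle (0.26 ± 0.10, adjusted p = 0.786). Its groups did not overlap. Of all tested genes 5.7% had such a p and 33.6% did not overlap in this comparison, so 1 of 26 is not more than the background. Rbbp7, a histone chaperone (0.14 ± 0.11), and Chd3, a NuRD remodeller (-0.14 ± 0.12), had the next smallest p-values. Against wild type 1 of 26 fell in either mutant group and 0 rose, by edgeR, DESeq2 and limma-voom alike. Of all tested genes 1.99% fell with GSK-LSD1 and 0.994% with vehicle in edgeR's test. This was Gatad2b, a subunit of the NuRD complex, at 77.1 and 85.1 CPM in mutants given GSK-LSD1, 88.1 and 84.6 CPM in mutants given vehicle, and 139.9 and 114 CPM in wild type. Gatad2b fell by 0.65 ± 0.11 on the log2 scale with GSK-LSD1 (adjusted p = 0.00833) and by 0.56 ± 0.11 with vehicle (adjusted p = 0.0302, edgeR). Without wild-type library 1 neither call held (-0.50 with adjusted p = 0.176 and -0.41 with adjusted p = 0.476), and the vehicle call was also lost without either vehicle library (adjusted p = 0.118 and 0.196). It was also lost with library size scaling (-0.48), a fit that is not robust (-0.56), a length and GC correction (-0.48) and the oligodendrocyte covariate (-0.72), with adjusted p from 0.0522 to 0.0775.

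Neuronal genes known to be repressed by REST in other cells were taken as a list of 19 symbols. Of these 18 were found and tested, and the one not found is an older symbol of Scn2a, which is on the list. In mutants given GSK-LSD1 against mutants given vehicle 0 of 18 passed by edgeR, DESeq2 or limma-voom, and the median was 0.00. By edgeR 1 had an unadjusted p under 0.05, the secreted neuropeptide precursor Vgf at 225 and 229.9 CPM with GSK-LSD1, against 182 and 158 CPM with vehicle (0.42 ± 0.11, adjusted p = 0.336). Its groups did not overlap. With 5.7% of all tested genes at such a p and 33.6% without overlap, 1 of 18 is near the background. Chrm4 (0.27 ± 0.14) and Snap25 (-0.21 ± 0.12) had the next smallest p-values. Against wild type 3 of 18 fell and 0 rose with GSK-LSD1, and 2 fell and 0 rose with vehicle, by edgeR and by limma-voom, with medians of -0.18 and -0.21. The shares of all tested genes that fell were 1.99% with GSK-LSD1 and 0.994% with vehicle. DESeq2 called 5 lower with GSK-LSD1, adding Scn2a and Syt4, and 4 lower with vehicle, adding Grin1 and Scn2a. The adhesion molecule gene L1cam fell to 203 and 174 CPM in mutants given GSK-LSD1 and to 191 and 170.4 CPM in mutants given vehicle, against 285 and 242 CPM in wild type (-0.49 ± 0.12, adjusted p = 0.0347, and -0.54 ± 0.12, adjusted p = 0.0331, edgeR). The synapsin gene Syn1 fell to 269.6 and 314 CPM in mutants given GSK-LSD1 and to 333 and 283 CPM in mutants given vehicle, against 562 and 456 CPM in wild type (-0.80 ± 0.13, adjusted p = 0.00475, and -0.72 ± 0.13, adjusted p = 0.0178, edgeR). The NMDA receptor subunit Grin1 fell to 214 and 222 CPM in mutants given GSK-LSD1, against 313 and 278 CPM in wild type (-0.44 ± 0.11, adjusted p = 0.0344, edgeR). For each of these 3 genes both mutant libraries of a comparison were below both wild-type libraries. Groups did not overlap with wild type for 45.8% of all tested genes with GSK-LSD1 and 46.2% with vehicle. The 3 genes were named because they passed the test, so the lack of overlap is no further support.

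Each of these 5 calls was lost without wild-type library 1, where adjusted p ran from 0.118 to 0.534 in edgeR's test. The calls in mutants given vehicle were also lost without either vehicle library (adjusted p from 0.0521 to 0.289), that of L1cam with GSK-LSD1 without inhibitor library 2 (0.245), and that of Grin1 without inhibitor library 1, inhibitor library 2 or vehicle mutant library 1 (0.0592 to 0.0902). Other settings ended calls too. Library size scaling and a fit that is not robust ended each but that of Syn1 with GSK-LSD1 (adjusted p from 0.0525 to 0.0805). The length and GC correction ended both calls of L1cam and that of Grin1 (0.0622 to 0.105), which was also lost with the replicate block added (-0.34, 0.0827). The oligodendrocyte covariate ended both calls of L1cam, at -0.42 with GSK-LSD1 (0.0883) and -0.39 with vehicle (0.485). A fit to only the 4 libraries of the comparison ended those of L1cam and Grin1 with GSK-LSD1 (0.0545 and 0.0628). Excitatory neuron markers were lower in the same comparisons, at 3461 and 3004 CPM in mutants given GSK-LSD1 and 3417 and 3442 CPM in mutants given vehicle, against 4157 and 3941 CPM in wild type, and their part in these values was not tested.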

How the data were processed

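The authors deposited raw read counts per gene symbol, 1 table per library, and per the submitters' processing notes these counts come from cutadapt, TopHat2, SAMtools and featureCounts on mm10 (GRCm38), with edgeR also named. Versions, annotation release, strand and multi-mapping settings were not given in the sources used here. Per the labels' protocols, ribosomal RNA was removed from total RNA and libraries were stranded.

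The counts were tested with edgeR 4.0.16 in R 4.3.3: filterByExpr, TMM scaling and a robust quasi-likelihood fit of 3 groups to all 6 libraries (3 residual degrees of freedom, biological coefficient of variation 11.5%). P-values are two-sided, Benjamini-Hochberg adjusted over all 18705 tested genes with a threshold of 0.05. The SE is the log2 fold change divided by the root of the F statistic, without its sign, and intervals are 95% from the moderated degrees of freedom. The fit was also run on counts simulated from its own means and spread, which cannot show that it suits these libraries. Counts of replicates differed beyond sampling noise, with a chi-square over its degrees of freedom of 9.94 to 13.3. Symbols turned into dates (26) were not named.

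Positions, exon lengths, GC content (98.7% of tested genes) and transcript sequences come from GENCODE release M21. Transcripts of the 9 genes were aligned to all others, and copies with at least 300 bases at 90% identity were kept. Of the copies of Hdac1, a further one found was not analysed here, and Gm21834 had 0 reads.

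The members and lists were chosen with earlier results of these data known. Named were the 9 members, the called genes of each list or otherwise those with the smallest p (up to 3), and the 5 genes most correlated with Kdm1a. 1 gene that this rule names is not reported here. Alternatives were other scalings, filters, DESeq2 1.42.0, limma-voom 3.58.1, a fit not robust, 4 libraries, a replicate block, a length and GC correction, an oligodendrocyte covariate, a threshold of 0.10 and each library left out. Sums of Hdac1 with its copies were added after the data were seen.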

Additional observations from a re-analysis of the deposited data

How the results depend on the processing

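No member passed the test in any comparison under any of the 21 alternatives, which include DESeq2, limma-voom and a threshold of 0.10. Of 567 member fold changes under alternatives, 532 kept their side of 0 and 35 changed it, in 16 of 27 fold changes. Values given for a gene are log2 fold changes, and the cause of a shift was not tested.

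In mutants given GSK-LSD1 against mutants given vehicle, signs changed for Kdm1a with the length and GC correction (-0.01, also with the replicate block) and the oligodendrocyte covariate (-0.04), for Hdac1 with the replicate block and length and GC correction (-0.02), the oligodendrocyte covariate (-0.90) and the sum with its copies (-0.01), for Hdac2 with the covariate (-0.06), and for Hmg20b with the length and GC correction (-0.01, also with the block). In mutants given GSK-LSD1 against wild type they changed for Kdm1a with library size scaling (0.01) and, with the covariate, for Hdac1 (0.04) and Phf21a (-0.08). In mutants given vehicle against wild type they changed for Kdm1a (0.00), Rcor3 (-0.38) and Hdac1 (0.94) with the covariate and for Hdac2 with the length and GC correction (-0.05, also with the block).

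Leaving out 1 library at a time changed signs as follows. GSK-LSD1 against vehicle mutants ran from -0.07 to 0.11 for Kdm1a, -0.02 to 0.23 for Rcor1, -1.05 to 0.95 for Hdac1, -0.08 to 0.09 for Hdac2, -0.07 to 0.20 for Hmg20b and -0.04 to 0.41 for Phf21a. GSK-LSD1 against wild type ran from -0.04 to 0.11 for Rcor2, -1.42 to 0.22 for Hdac1, -0.03 to 0.11 for Hdac2, -0.34 to 0.06 for Hmg20b and -0.13 to 0.31 for Phf21a. Vehicle mutants against wild type ran from -0.23 to 0.32 for Rcor3, -1.28 to 0.18 for Hdac1 and -0.05 to 0.12 for Hdac2.

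Counts over all tested genes moved more. GSK-LSD1 against vehicle mutants had 20 calls, 106 with no filter, 35 by DESeq2, and 10 to 83 with 1 library left out. GSK-LSD1 against wild type had 491 (119 higher), 253 with library size scaling (111 higher), 962 with no filter, 793 by DESeq2, 871 at a threshold of 0.10, and 6 (without wild-type library 1) to 631 with 1 left out. Vehicle mutants against wild type had 238 (52 higher), 141 with upper quartile scaling (45 higher), 35 with library size scaling (15 higher), 807 with no filter, 590 by DESeq2, 137 by limma-voom, 11 in a fit that is not robust, 524 with 4 libraries, 126 with the length and GC correction, 47 with the covariate, 552 at 0.10, and 6 (without wild-type library 1) to 656 with 1 left out. No scaling moved the median gene by more than 0.08.

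The labels do not say that replicate numbers pair the libraries. Deviations of same-numbered libraries correlated at 0.16 between the mutant groups, -0.07 between GSK-LSD1 mutants and wild type and -0.08 between vehicle mutants and wild type. With 2 libraries per group, these values cannot exclude a pairing. With the replicate block there were 18, 505 and 233 calls in the 3 comparisons, and 0 members.

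With 2 libraries per group, the 95% intervals of Kdm1a reach from -0.31 to 0.24 over the 3 comparisons and those of Hdac2 from -0.22 to 0.27, and those of Hdac1 are far wider.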
